A study of Mus musculus with 8 samples.

Results

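Striatal medium spiny neurons are the projection neurons of the striatum, a region next to the cortex that receives dense dopamine input. The genes described here are 8 that mark these neurons: Drd1, Drd2, Adora2a, Ppp1r1b, Rgs9, Pde10a, Rasd2 and Syndig1l. Members are fixed by gene name, but the list was drawn up with earlier results of these data known. Measured signals decided which members and probes were tested. All 8 members had probes on the array, 13 probes in all, and 6 of the 8 passed the filter on dim probes. They were read among 23593 tested rows, of which 16019 were named genes and the rest unnamed probes.

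The samples were 8 hippocampal RNAs from female C57BL6/J mice, labelled as 8 weeks of age. Before sampling, mice of both groups were kept for 4 weeks in enriched housing. The 4 samples of the anti-CD4 group came from mice given anti-CD4 antibodies, which bind a surface protein of helper T cells, and the 4 control samples from mice given control antibodies. The study asked whether depletion of CD4-positive T cells changes hippocampal gene expression. No label says whether a sample is 1 animal or a pool, so p-values here rest on a spread between samples that may be technical only. No label gives a striatal sample: the members were measured outside the tissue they are known for.

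Each sample was hybridised to a one-colour Agilent array, and the number of arrays limits the precision. All levels are log2 of the processed signal minus the log2 of that array's 75th percentile, so 0 is a probe as bright as the 75th percentile. Levels of different probes cannot be set against each other. Differences are anti-CD4 minus control, and means carry the SD over n = 4 arrays. All 8 arrays lay on 1 slide, with the anti-CD4 arrays in slide row 1 and the control arrays in slide row 2, so row and group cannot be told apart. On each array, 51.1% to 54.3% of probes passed the scanner software's test of being well above background. Since this is bulk tissue, fewer cells of a type and less RNA per cell cannot be told apart.

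Medium spiny neurons fall into a pair of classes that read dopamine in opposite ways. Direct-pathway neurons carry the D1 receptor, which raises cyclic AMP, and indirect-pathway neurons carry the D2 receptor, which lowers it, together with the adenosine receptor made from Adora2a, which raises it. Cyclic AMP activates protein kinase A, which phosphorylates DARPP-32, the product of Ppp1r1b, and turns it into an inhibitor of protein phosphatase 1. Rgs9, Pde10a and Rasd2 encode proteins that limit or tune these signals. The hippocampus expresses some of these genes outside the striatum: Drd1 and, in mossy cells of the hilus, Drd2 are known there.

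The sequences of the Drd1 and Drd2 probes are printed because these sister receptors were the detected and the undetected dopamine receptor of the set. Both are 60 bases long, read from the array files, and written 5′ to 3′ in lower case with no part marked.
Drd1 probe: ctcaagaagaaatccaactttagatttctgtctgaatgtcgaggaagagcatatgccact
Drd2 probe: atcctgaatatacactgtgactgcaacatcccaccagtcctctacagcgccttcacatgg
On mm9, the build of the files, the Drd1 probe lies at chr13:54147277-54147336 on the minus strand and the Drd2 probe at chr9:49215047-49215106 on the plus strand. G and C make up 40% of the Drd1 probe and 50% of the Drd2 probe. The files name the Drd1 probe by the older symbol Drd1a.

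None of the 6 tested members differed between the groups by more than the spread between arrays. Drd1, Ppp1r1b and Syndig1l had higher means in the anti-CD4 group, and Rgs9, Pde10a and Rasd2 had lower means, so 3 of 6 were higher, beside 51.8% of all rows. In limma, 0 of 6 passed an adjusted p of 0.05, beside 0% of all 23593 rows. At an unadjusted p of 0.05, 0 of 6 passed, beside 13% of all rows. The groups did not overlap for 0 of 6, beside 8.18% of all rows. The median difference of the 6 was 0.094, beside 0.0068 over all rows. The 2 members left out, Drd2 and Adora2a, were too dim to enter these counts.

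**Figure D1:**
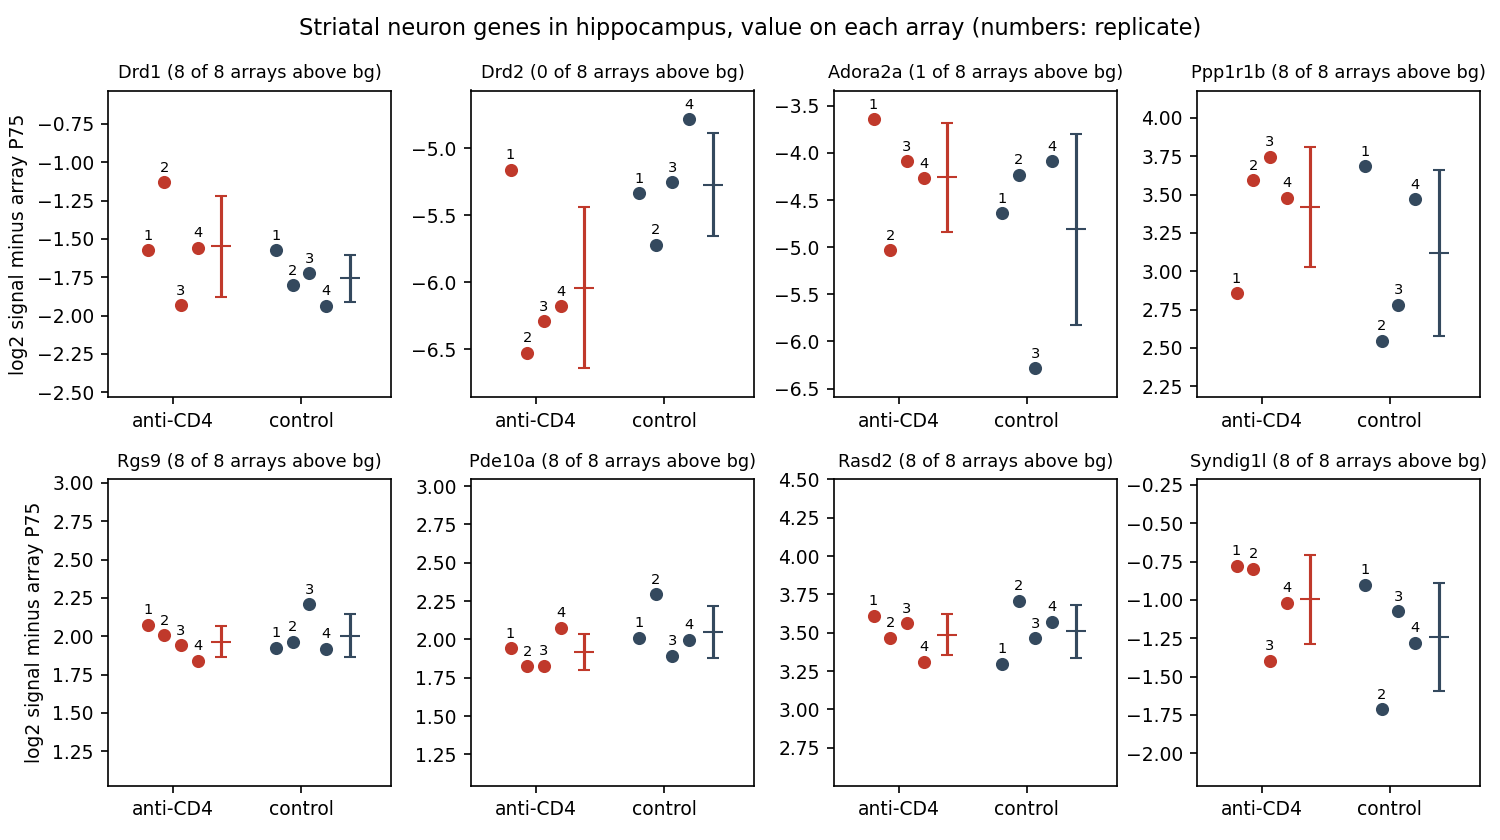
Level of each member on every array, as log2 of the signal relative to the array's 75th percentile (P75, vertical axis), for 4 anti-CD4 and 4 control arrays. Points are arrays numbered by replicate, horizontal marks are group means, bars are SD, and each panel has its own range. The groups overlap for every tested member, and Ppp1r1b splits each group into low and high arrays.

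The receptors came first in order of signalling. Drd1 was well above background on all 8 arrays. Its level was -1.58, -1.13, -1.93 and -1.56 on the anti-CD4 arrays, against -1.57, -1.80, -1.72 and -1.94 on the control arrays. The anti-CD4 group held the highest value, and its lowest value lay beside the lowest of the controls, so the groups overlapped. Drd1 averaged -1.55 ± 0.33 in the anti-CD4 group and -1.76 ± 0.15 in the control group. The difference was 0.21 with a standard error of 0.16 (95% interval -0.16 to 0.58, limma adjusted p = 0.596). An exact two-sided permutation test over 70 assignments gave p = 0.257, where the smallest p this design allows is 0.0286. The difference was 0.10 in the authors' table of normalized values, and 0.07 without anti-CD4 replicate 2, the highest array. Without anti-CD4 replicate 3, the lowest of its group, it was 0.34.

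Drd2 was well above background on 0 of the 8 arrays. Its processed signal, before scaling, was 20.1, 8.24, 9.82 and 10.1 on the anti-CD4 arrays and 22.8, 16.05, 19.4 and 26.6 on the control arrays. Every one of these lay below the dimmest probe called well above background on its array, so no fold change is given. Adora2a was well above background on 1 array, anti-CD4 replicate 1. Its processed signal was 57.6, 23.2, 45.3 and 37.8 on the anti-CD4 arrays, against 36.9, 45.02, 9.48 and 43.0 on the control arrays. On the log2 scale its measured mean was -4.26 in the anti-CD4 group and -4.81 in the control group. As 3 of the 4 anti-CD4 values and all 4 control values were not well above background, no fold change is given. With no filter on dim probes, the limma adjusted p was 0.875 for Adora2a and 0.715 for Drd2. The Adora2a probe lies at chr10:74797461-74797520 on the plus strand. The receptors that define indirect-pathway neurons were thus read at or near background in these hippocampal samples, each by a single probe. Absent RNA and a probe that reads its RNA poorly cannot be told apart here. The 8 genes are therefore described as a gene set and not as a cell type present in the tissue.

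Ppp1r1b encodes DARPP-32, the phosphatase inhibitor that relays dopamine signals, and its probe lies at chr11:98218965-98219024 on the plus strand. Its level was 2.86, 3.59, 3.75 and 3.48 on the anti-CD4 arrays, against 3.68, 2.55, 2.78 and 3.47 on the control arrays. Each group held low and high arrays: 1 anti-CD4 array and 2 control arrays lay between 2.55 and 2.86, and the other 5 between 3.47 and 3.75. It averaged 3.42 ± 0.39 in the anti-CD4 group and 3.12 ± 0.54 in the control group. The difference was 0.30 with a standard error of 0.28 (95% interval -0.35 to 0.95, limma adjusted p = 0.678, exact permutation p = 0.343). It was the most array-variable of the 6, with only 4.90% of all rows varying more over the 8 arrays. Leaving out 1 array moved its difference as high as 0.49, when anti-CD4 replicate 1 or control replicate 1 was dropped, and as low as 0.11, when control replicate 2 was dropped. It was 0.19 without anti-CD4 replicate 3 or control replicate 3.

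The arrays that were low for Ppp1r1b were also the lowest for Ttr, the gene of transthyretin, which choroid plexus epithelium makes in large amounts. Ttr had processed signals of 1675, 147188, 274131 and 156927 on the anti-CD4 arrays, against 264038, 5576, 538 and 224770 on the control arrays. Anti-CD4 replicate 1 and control replicates 2 and 3 were low for both genes. All 12 choroid plexus markers were tested and had higher means in the anti-CD4 group, with 0 of 12 at an unadjusted p under 0.05 and a median difference of 0.92. That direction rested on single arrays: it was 5 higher and 7 lower without control replicate 3 (median -0.043), 9 and 3 without control replicate 2 (median 0.28), and 8 and 4 without anti-CD4 replicate 3 (median 0.28). Their summed level, on a linear scale relative to the 75th percentile, ran from 32.0 to 624 on the anti-CD4 arrays and from 25.1 to 499.8 on the control arrays. Sums of this kind are weighted towards the brightest probes of a list, here Ttr and Enpp2. With the Ttr level as a covariate, the Ppp1r1b difference was 0.12. The part of choroid plexus RNA in the Ppp1r1b values was not tested.

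**Figure D2:**
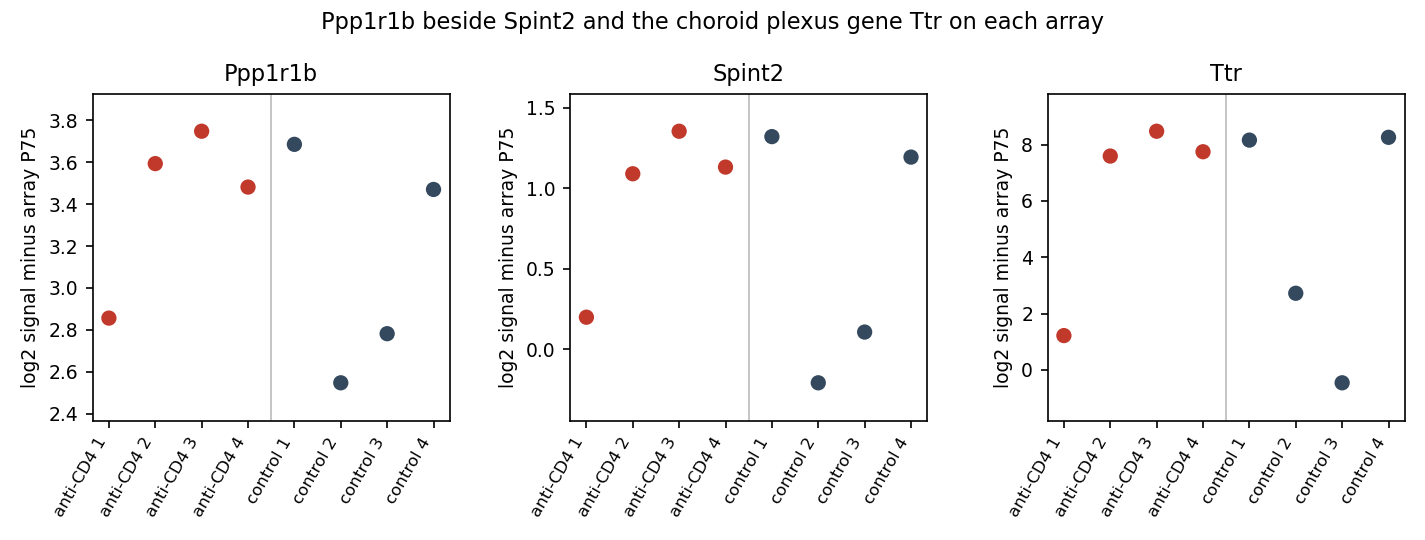
Levels of Ppp1r1b, Spint2 and Ttr (1 panel each, vertical axes in log2 relative to the array's 75th percentile, P75, with different ranges) on the 4 anti-CD4 and 4 control arrays, 1 point an array. Anti-CD4 replicate 1 and control replicates 2 and 3 are the low arrays in all 3 panels.

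Rgs9 encodes a regulator of G-protein signalling that speeds the end of signals through the D2 receptor, and it was read by 4 tested probes. The brightest, at chr11:109086669-109086728 on the minus strand, measured 2.08, 2.01, 1.94 and 1.84 on the anti-CD4 arrays, against 1.93, 1.96, 2.21 and 1.92 on the control arrays. Control replicate 3 stood above all other arrays, and the other 3 control values lay within the wider range of the anti-CD4 arrays. The means were 1.97 ± 0.10 in the anti-CD4 group and 2.01 ± 0.14 in the control group. The difference was -0.039 with a standard error of 0.088 (95% interval -0.24 to 0.16, limma adjusted p = 0.871, exact permutation p = 0.714). It was 0.029 without control replicate 3.

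The other Rgs9 probes were split in direction. A second bright probe shares 54 of its 60 bases with the first, so both read nearly the same stretch. It measured 1.91, 1.96, 1.76 and 1.86 on the anti-CD4 arrays, against 1.94, 2.003, 2.17 and 1.89 on the control arrays, a difference of -0.13 (exact permutation p = 0.143). A dim probe at chr11:109121142-109121201 measured -3.09, -3.07, -3.37 and -2.75 on the anti-CD4 arrays, against -3.44, -3.55, -3.24 and -3.04 on the control arrays. Its difference was 0.25 (exact permutation p = 0.2). The dimmest, at chr11:109096382-109096441, was well above background on 4 anti-CD4 arrays and 2 control arrays and differed by 0.35 (exact permutation p = 0.286). It passed the filter through the group where it was high, so its difference supports nothing here. With another background correction (normexp) its difference was 0.22, and 0.17 in the authors' table. For the other dim probe these were 0.17 and 0.11. In a limma fit over all 29403 tested probes, the 3 probes other than the brightest had adjusted p of 0.526, 0.511 and 0.499. The bright probes leaned lower and the dim ones higher, each within its spread. The mean of the 4 differed by 0.11, and it includes the dimmest probe.

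Pde10a encodes a phosphodiesterase that breaks down cyclic AMP and cyclic GMP and is enriched in medium spiny neurons. Its brightest probe, at chr17:9174995-9175054 on the plus strand, measured 1.94, 1.82, 1.83 and 2.08 on the anti-CD4 arrays, against 2.01, 2.29, 1.89 and 1.998 on the control arrays. Control replicate 2 was the highest array, and the remaining values of both groups overlapped. The means were 1.92 ± 0.12 in the anti-CD4 group and 2.05 ± 0.17 in the control group. The difference was -0.13 with a standard error of 0.10 (95% interval -0.36 to 0.10, limma adjusted p = 0.600, exact permutation p = 0.314), and -0.05 without control replicate 2.

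A neighbouring Pde10a probe, at chr17:9174477-9174536, went the other way. It measured 0.62, 0.48, 0.59 and 0.77 on the anti-CD4 arrays, against 0.18, 0.69, 0.26 and 0.51 on the control arrays. That is a difference of 0.21 (exact permutation p = 0.2, limma adjusted p over all probes 0.499). The groups overlapped here too, since 2 control arrays lay within the anti-CD4 range. The last Pde10a probe, at chr17:9179394-9179453, was well above background on 0 of 8 arrays. G and C make up 15% of its bases, against 43.3% for the brightest probe and 50% for the neighbour. The mean of the 2 tested probes differed by 0.037.

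**Figure D3:**
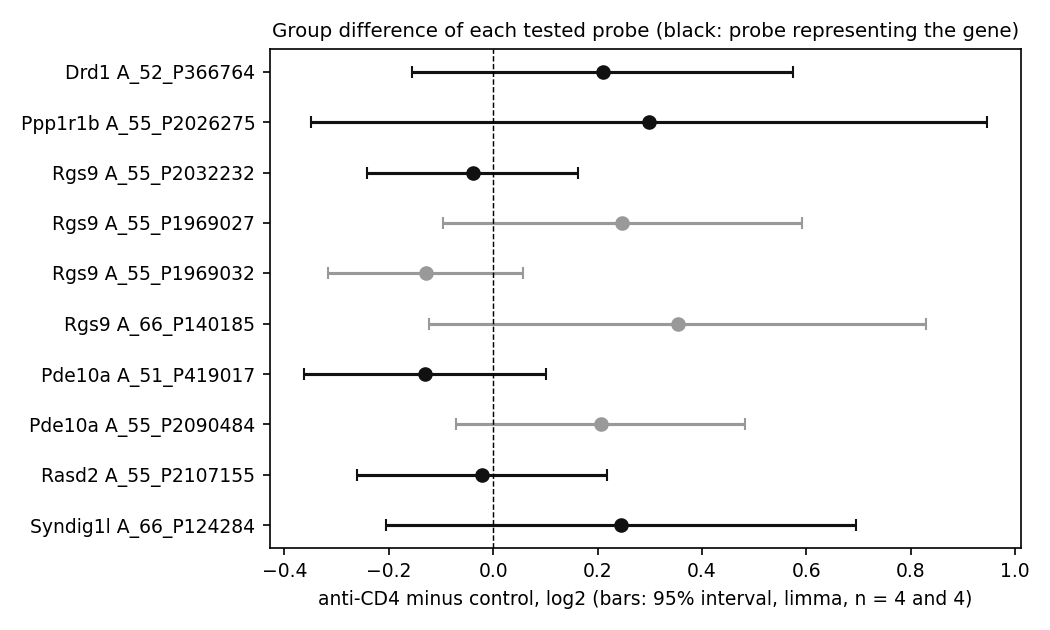
Difference of each tested member probe, anti-CD4 minus control in log2 units (horizontal axis), with its 95% interval, 1 line a probe. Of the 10 tested probes 6 lie above 0 and 4 below, every interval crosses 0, and the probes of Rgs9 and of Pde10a fall on both sides.

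Rasd2 encodes Rhes, a Ras-like GTPase enriched in striatal neurons, and its probe lies at chr8:77747953-77748012 on the plus strand. Its level was 3.61, 3.47, 3.56 and 3.31 on the anti-CD4 arrays, against 3.30, 3.71, 3.46 and 3.57 on the control arrays. The groups covered nearly the same range, with means of 3.49 ± 0.13 in the anti-CD4 group and 3.51 ± 0.17 in the control group. The difference was -0.022 with a standard error of 0.10 (95% interval -0.26 to 0.22, limma adjusted p = 0.947, exact permutation p = 0.943). The interval holds changes of either direction.

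Syndig1l encodes a membrane protein of the SynDIG family, also called capucin, whose RNA is enriched in the striatum of the mouse. The files name its probe Tmem90a and place it at chr12:86018237-86018296 on the minus strand. Its level was -0.78, -0.80, -1.40 and -1.02 on the anti-CD4 arrays, against -0.90, -1.71, -1.07 and -1.28 on the control arrays. The top 2 arrays were anti-CD4 and the lowest was a control array, but the groups overlapped. The means were -0.997 ± 0.29 in the anti-CD4 group and -1.24 ± 0.35 in the control group. The difference was 0.24 with a standard error of 0.20 (95% interval -0.21 to 0.70, limma adjusted p = 0.616, exact permutation p = 0.314). Leaving out anti-CD4 replicate 3 gave 0.38, and leaving out control replicate 2 gave 0.09.

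The 6 tested members did not vary as one group over the arrays. Of the 15 pairs, 7 had a Pearson r above 0 and 8 below, from -0.59 to 0.72. The closest pair was Drd1 and Syndig1l, with r = 0.72 (permutation p = 0.0412) and rho = 0.74 (permutation p = 0.0458) over 8 arrays. After Benjamini-Hochberg adjustment over the 15 pairs, none passed, and the smallest adjusted value was 0.425. Without the 2 arrays farthest from the Drd1 median, r for this pair was 0.79, and with each group centred on its mean it was 0.67. Points in these correlations share an array, its labelling and its place on the slide.

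Likeness to other genes was measured by Pearson r over the 8 arrays among 3793 genes whose SD over arrays was at least 0.2. It is given as a description with no test. Drd1 was most like Grik1, a kainate receptor subunit gene, at r = 0.97, and Msln at 0.95. Grik1 measured -0.39, -0.08, -0.76 and -0.35 on the anti-CD4 arrays, against -0.49, -0.67, -0.47 and -0.73 on the control arrays, and so had its highest array in common with Drd1. Ppp1r1b was most like Spint2, a protease inhibitor gene, at 0.99, and Ins1 at 0.99. Spint2 was between -0.21 and 0.20 on the 3 arrays low for Ppp1r1b and between 1.09 and 1.35 on the other 5, so these r values rest on the gap between the clusters. Ins1 was well above background only on the arrays high for Ppp1r1b. Rasd2 was most like Kcnip2, a potassium channel partner, at 0.98, and Tmem267 at 0.96. Syndig1l was most like Gnb3, a G-protein subunit gene, at 0.98, and Elavl4, a neuronal RNA-binding protein gene, at 0.96. Rgs9 was closest to Tfap4 at 0.92 and Olfr18 at 0.89, both highest on control replicate 3. Pde10a was closest to Myl9 and Myom2, muscle-type myosin and M-band genes, both at 0.94. The mean pattern of the 6 members was most like Gpatch3 at 0.93, Slitrk6 at 0.92, Tssk6 at 0.91, Ankrd50 at 0.90 and Mamstr and Syt10, both at 0.89.

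Other genes known from striatal neurons were read beside the members. Of 34 on the list, 30 were tested, and Gpr52, Foxp2, Isl1 and Ido1 were not. In the anti-CD4 group 19 were higher and 11 lower, with a median difference of 0.12. None passed the adjusted threshold in limma. At an unadjusted p under 0.05, 6 were higher and 2 lower, beside 6.16% and 6.83% of all rows in these directions. With arrays left out in turn, the 6 became 4 to 11, the 11 being without anti-CD4 replicate 3. Tac1, the substance P precursor gene of direct-pathway neurons, measured 2.88, 3.01, 2.30 and 2.92 on the anti-CD4 arrays, against 2.12, 2.04, 2.48 and 2.16 on the control arrays. Of its anti-CD4 arrays 3 lay above all controls, and replicate 3 lay within them (difference 0.58, limma adjusted p = 0.255). Six3, a forebrain transcription factor gene, measured -1.68, -2.39, -3.12 and -3.41 on the anti-CD4 arrays, against -3.50, -4.33, -5.48 and -3.81 on the control arrays. It was well above background on all 4 anti-CD4 arrays but on only 1 control array, so it passed the filter through the group where it was high. Its difference of 1.63 (limma adjusted p = 0.264) is set against control values mostly not above background and supports nothing here. With another background correction (normexp) it was 0.71, and 0.49 in the authors' table. With probes required on all 8 arrays, Six3 was not tested, and the list held 28 genes, 17 higher and 11 lower, of which 5 and 2 passed an unadjusted p of 0.05. Ebf1, a transcription factor gene of direct-pathway neuron development, differed by 0.54 (limma adjusted p = 0.264), and by 0.30 in the authors' table. Chrm4, the M4 muscarinic receptor gene, differed by -0.62 (limma adjusted p = 0.270), by -0.10 after normexp and by -0.07 in the authors' table.

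Markers of other brain regions were read beside the striatal genes, and their correlation with Tac1 was not computed. The region lists were drawn up with earlier results of these data known, so their counts test nothing. Of 18 hypothalamus and amygdala markers, 11 were tested and all 11 had higher means in the anti-CD4 group. At an unadjusted p under 0.05, 8 of them passed, beside 6.16% of all rows higher and 6.83% lower. Without anti-CD4 replicate 2, 10 of the 11 were higher. With probes required on all 8 arrays, 8 markers were tested, all 8 with higher means and 5 at an unadjusted p under 0.05. Their summed linear level, weighted towards the bright probes of Hap1 and Zcchc12, ran from 37.0 to 79.3 on the anti-CD4 arrays. On the control arrays it ran from 32.0 to 39.9. Anti-CD4 replicate 3 had the lowest sum of its group, and was also the lowest of its group for Drd1, Syndig1l and Tac1. Of the hypothalamus and amygdala list, Avp, Oxt, Agrp, Pmch, Sim1, Otp and Nkx2-1 did not pass the filter, while Pomc, Crh, Ghrh, Hcrt and Gal did. Thalamus and habenula markers had higher means for 10 of 10 tested, with 1 at an unadjusted p under 0.05 and 8 to 10 higher when arrays were left out in turn. Their sums ran from 15.01 to 19.3 in the anti-CD4 group and from 13.5 to 17.0 in the control group. Neocortex markers had higher means for 8 of 10 tested, with 1 higher and 1 lower at an unadjusted p under 0.05 and 6 to 8 higher when arrays were left out. Their sums ran from 26.7 to 37.6 in the anti-CD4 group, lowest on replicate 3, and from 19.1 to 30.7 in the control group. Dentate granule cell markers had lower means for 12 of 14 tested. At an unadjusted p under 0.05, 3 were lower and 1, Calb1, was higher (difference 0.43, limma adjusted p = 0.308). Without anti-CD4 replicate 3, 7 were lower and 1 higher at that threshold. Leaving out any other single array gave 1 or 2 lower and 0 or 1 higher. The dentate marker sums ran from 29.8 to 43.9 in the anti-CD4 group and from 36.1 to 56.2 in the control group. With the dentate mean as a covariate, the differences were 0.028 for Drd1, 0.029 for Ppp1r1b and 0.050 for Syndig1l. Under that covariate 10 of 11 hypothalamus and amygdala markers and 8 of 10 thalamus and habenula markers had differences above 0. Of the neocortex markers, 3 were higher and 7 lower under it (median -0.055). The part of these tissues in the members' values was not tested.

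The dopamine supply and the remaining dopamine and adenosine receptors made up a further list of 13, of which 12 were tested and Drd3 was not. It split into 6 higher and 6 lower, with a median difference of 0.015 and none past the adjusted threshold in limma. The median was 0.11 in the authors' table, with 8 higher and 4 lower, and 0.14 after normexp, with 7 higher and 5 lower. Without control replicate 4 it was -0.019. At an unadjusted p under 0.05 there were 3 higher and 1 lower, beside 6.16% and 6.83% of all rows. When arrays were left out in turn, there were 1 to 4 higher. Ddc, whose enzyme makes dopamine from its precursor, measured 0.55, 0.65, 0.39 and 0.60 on the anti-CD4 arrays, against 0.24, 0.30, 0.36 and 0.24 on the control arrays. Every anti-CD4 array lay above every control (difference 0.26, limma adjusted p = 0.252), which 3.82% of all rows did in this direction. The Ddc difference was 0.16 in the authors' table. Th, the rate-limiting enzyme of dopamine synthesis, differed by 0.28 (limma adjusted p = 0.327), and Maob, which degrades monoamines, by 0.25 (limma adjusted p = 0.336). Slc18a2, the vesicular monoamine transporter gene, differed by -0.31 (limma adjusted p = 0.382). With the dentate mean as a covariate, Th differed by 0.18 and Slc18a2 by -0.17.

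For the cyclic AMP and DARPP-32 pathway, all 30 listed genes were tested, 16 higher and 14 lower, with a median difference of 0.015. The direction of the list turned with the scaling: quantile normalization gave 13 higher and 17 lower, and centring each array on its median gave 21 higher and 9 lower. None passed the adjusted threshold in limma. At an unadjusted p of 0.05, 5 higher and 1 lower passed, beside 6.16% and 6.83% of all rows. The 5 became 2 to 7 when arrays were left out. With the dentate mean as a covariate, 1 higher and 3 lower passed. Gnal, Gng7, Adcy5, Pde1b and Pde7b also stood on the list of other striatal genes. The calls of Gnal (higher) and Gng7 (lower) thus count in both lists. Cdk5r1, the activator of the Cdk5 kinase that also phosphorylates DARPP-32, measured 5.64, 5.61, 5.50 and 5.66 on the anti-CD4 arrays, against 5.20, 5.38, 5.42 and 5.40 on the control arrays. Those groups did not overlap (difference 0.25, limma adjusted p = 0.255), as for 3.82% of all rows in this direction. Gng7, the G-protein gamma subunit that couples striatal receptors to adenylyl cyclase, measured 3.603, 3.48, 3.61 and 3.43 on the anti-CD4 arrays, against 3.68, 3.92, 3.82 and 3.70 on the control arrays. Every anti-CD4 array was lower than every control (difference -0.25, limma adjusted p = 0.270). Groups did not overlap, in either direction, for 8.18% of all rows. With the mean of its tested probes the Gng7 difference was -0.15 (limma adjusted p = 0.586), and with the dentate mean as a covariate it was -0.16. Prkar2b, a regulatory subunit of protein kinase A, differed by 0.37 (limma adjusted p = 0.291), and Ppp1ca, a catalytic subunit of protein phosphatase 1, by 0.17 (limma adjusted p = 0.322). With the mean of its tested probes, Prkar2b differed by 0.24.

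The partners of Rgs9, Rasd2 and Syndig1l formed a list of 10, all tested, with 4 higher and 6 lower and a median difference of -0.12. Without control replicate 2 it was 5 higher and 5 lower, with a median of -0.042. None passed the adjusted threshold in limma. At an unadjusted p of 0.05, 1 higher and 2 lower passed, beside 6.16% and 6.83% of all rows. Rgs11, a relative of Rgs9, measured 2.23, 2.19, 2.56 and 2.15 on the anti-CD4 arrays, against 3.20, 3.01, 2.66 and 2.58 on the control arrays. Every control array lay above the anti-CD4 arrays (difference -0.58, limma adjusted p = 0.248). Rgs7bp, which anchors these regulators at the membrane, measured 3.23, 3.20, 3.05 and 3.07 on the anti-CD4 arrays, against 3.28, 3.80, 3.52 and 3.42 on the control arrays. It too had groups that did not overlap (difference -0.37, limma adjusted p = 0.267), as for 8.18% of all rows in either direction. Rgs6 differed by 0.66 (limma adjusted p = 0.343) and Prrt2, a presynaptic relative of the SynDIG proteins, by -0.19 (limma adjusted p = 0.390). The Rgs6 difference was 0.39 after normexp, 0.26 in the authors' table, and 0.35 with the dentate mean as a covariate. Prrt2 differed by -0.13 without control replicate 2.

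**Figure D4:**
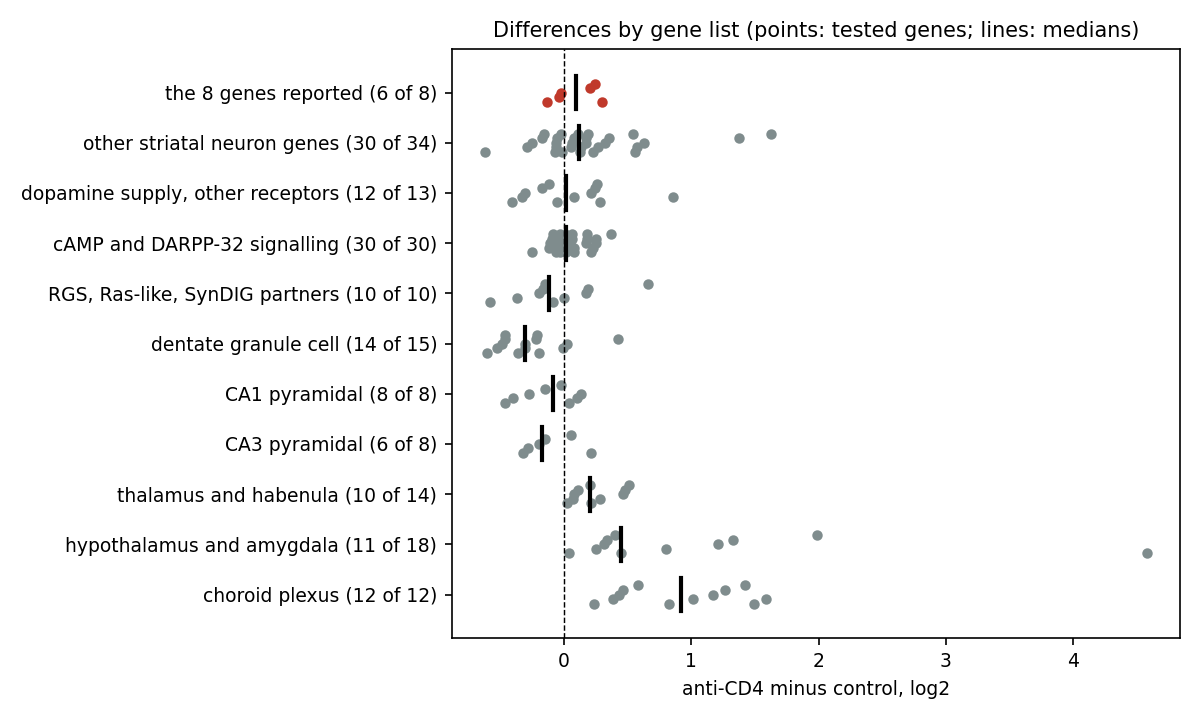
Difference of each tested gene of the members and of the other lists, anti-CD4 minus control in log2 units, 1 point a gene, with list medians as lines and the number tested of each list in brackets. The members lie between -0.13 and 0.30, and the other striatal genes between -0.62 and 1.63.

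**Figure D5:**
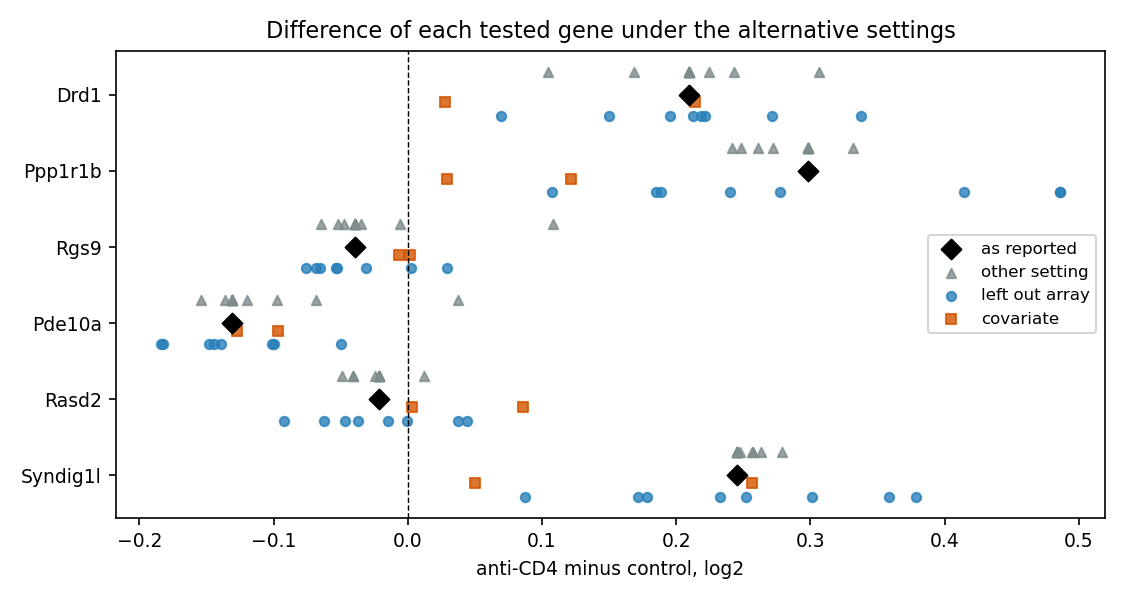
Difference of each tested member, anti-CD4 minus control in log2 units (horizontal axis), as reported (diamonds), under other settings (triangles), with 1 array left out (circles) and with Ttr or the dentate mean as a covariate (squares). Drd1, Ppp1r1b and Syndig1l stay above 0 under all settings shown, while Rgs9, Pde10a and Rasd2 fall on both sides of 0. Some of the other settings cannot move a difference.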

How the data were processed

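Spot intensity values in the deposited scanner files had been background-subtracted by Feature Extraction 10.7.3.1, per the file headers (array design 028005, mm9). A second deposited table of the authors holds log2 values for 55681 probes, for which the submitters' processing notes name limma and the sources used here give nothing more. Control spots were left out, and so were outlier-flagged spots unless every spot of the probe was flagged. Spots of a probe were averaged, and each array was scaled to its 75th percentile. Probes well above background on at least 4 of 8 arrays were tested, 29403 in all. The brightest tested probe stood for a gene, giving 23593 rows. Groups were taken from the sample labels and compared two-sided in R 4.3.3 by lmFit and eBayes (limma 3.58.1), and p-values were Benjamini-Hochberg adjusted with a threshold of 0.05. Single members were also tested by exact permutation in Python 3.11.15. In 5 simulated sets of 23593 rows, the test recovered 80.4% of genes shifted by 1 log2 unit and 42.4% of genes shifted by 0.5. In these sets 0.0342% of unchanged genes were called. Simulated rows were drawn independently, with no variation shared between genes, so these rates need not hold for the real arrays. Named list genes are the 4 with the smallest p in each list; likeness names 2 genes a member and 6 for the mean pattern. Members and lists were chosen with earlier results of these data known. Alternatives covered scaling, background correction, filters, probes, covariates, blocks and each array left out.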

Additional observations from a re-analysis of the deposited data

Results flagged for a closer look

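Among 50 groups of 4 arrays examined for a single array standing apart, 3 did (6%), and chance gives about 1 in 20. The brightest Rgs9 probe stood at 2.211 on control replicate 3, against 1.92 to 1.964 on the other controls. The mean of the interneuron marker list stood at 2.88 on anti-CD4 replicate 3, against 3.074 to 3.114 on the other anti-CD4 arrays. The mean of the CA1 pyramidal cell list stood at 2.342 on control replicate 1, against 2.464 to 2.487 on the other controls.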

How the results depend on the processing

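The median difference of the 6 tested members was above 0 under all 21 alternatives that give one, from 0.028 to 0.16. The eBayes options, the replicate block and the probe filters left this median unchanged. Drd1, Ppp1r1b and Syndig1l kept their direction under 22 of 22 alternatives, none passing the adjusted threshold. Their limma adjusted p ran from 0.293 to 0.960, from 0.529 to 0.979 and from 0.313 to 0.946. Several alternatives could not move these 3 differences: a looser threshold, the eBayes options, the replicate block, the probe filters and the choice of probes. The 22 are thus not separate checks of direction. Rasd2 turned to 0.012 with each array centred on its median, 0.037 without anti-CD4 replicate 4, 0.044 without control replicate 2, 0.0033 with Ttr and 0.086 with the dentate mean as a covariate. Rgs9 turned to 0.11 with the mean of its probes, which includes the dimmest probe. It turned to 0.0022 without anti-CD4 replicate 4, 0.029 without control replicate 3 and 0.0013 with Ttr as a covariate. Pde10a turned to 0.037 with the mean of its probes. With each array left out in turn, the Rgs9 difference ran from -0.076 to 0.029 and that of Rasd2 from -0.092 to 0.044. The cause was not tested. The count of genes called was 0 in the reported setting, 2 with trend and robust options of eBayes, 2 in the authors' table and, with arrays left out in turn, from 0 to 11, the 11 being without anti-CD4 replicate 3. With the replicate number as a block, 0 genes were called, 2209 passed an unadjusted p of 0.05 against 3065 without it, and no member's call changed. Deviations of same-numbered arrays correlated at -0.454 to 0.305, with 1 of 4 pairs over 0.1. The replicate number was also the slide column in both slide rows, so number and column cannot be told apart. Correlations of 4 pairs cannot settle whether the numbers pair the samples. Drd2 and Adora2a are limited by signal over background.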
